A study of Mus musculus with 10 samples.

Results

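The 5 libraries described here, A1 to A5, are the vehicle samples of a series of 10 and were taken by their treatment label. They hold RNA of the esophagus of WT mice of the strain C57BL/6, the control arm of a mouse model of eosinophilic esophagitis, a disease in which allergic inflammation fills the esophageal wall with eosinophils. The other 5 samples (C1 and D1 to D4) are from WT C57BL/6 mice that received oxazolone (OXA), a skin-sensitising hapten. Libraries were made by CEL-Seq, a method that reads the 3′ ends of polyadenylated transcripts, from TRIZOL-extracted RNA. The sources used here do not state the composition of the vehicle, its route and schedule, or the age and sex of the animals. The labels speak of mice but do not say whether each library came from its own animal, so the SD over 5 libraries may hold technical as well as animal variation. Animals that went through a vehicle protocol are controls of that protocol and need not equal mice that were left alone.

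The mouse esophagus is lined by a stratified squamous epithelium that cornifies. Its basal cells, marked by the keratins Krt5, Krt14 and Krt15, divide and attach to the basement membrane. Their daughters move up, switch to Krt4 and Krt13, and cross-link a cornified envelope of loricrin, small proline-rich and late cornified envelope proteins under the plasma membrane. In the mouse the outer muscle coat is striated, while the muscularis mucosae and vessels hold smooth muscle.

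The shallowest library was A5, with 5094159 reads over 17171 detected genes, and the deepest was A4, with 12108822 reads over 20779. Of 54446 genes in the table, 24072 had a read in some vehicle library, 11563 averaged 20 normalized counts or more and 899 averaged 1000 or more. A count of 0 allows up to 3 reads, which is 2.82 normalized counts on average over the 5 libraries. Spearman's rho between pairs of libraries, across those 24072 genes, lay between 0.937 and 0.956. Libraries A3 and A5 stood apart from the others. Across the 11560 of these 11563 genes whose exon length is known, the deviation of a gene from its own mean fell with exon length in A3 (rho = -0.30) and A5 (rho = -0.31) and rose with it in A1, A2 and A4 (rho = 0.23, 0.31 and 0.25). These 2 libraries also had the lowest shares of mitochondrially encoded reads, 7.81% in A3 and 4.85% in A5 against 10.03% to 12.1% in the others, and the lowest shares of lincRNA reads. The part of this difference in the levels given here was not tested, so class shares and some counts are given with and without A3 and A5. Mean levels and ratios of single genes use all 5 libraries. In whole tissue, fewer cells of a type and less RNA per cell cannot be told apart.

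Among the gene classes counted here, keratins of the upper epithelial layers, mitochondrial transcripts and striated muscle transcripts held the most reads of the vehicle esophagus. The classes do not cover all reads, and ribosomal protein genes were not counted as a class. The 208 highest genes held 50% of all reads (217 without A3 and A5), the 25 highest held 26.1%, and Krt4 and Krt13 alone held 10.4%. Of those 25 genes, 9 are mitochondrially encoded and 16 are nuclear. The nuclear ones were the keratins Krt4 and Krt13, the envelope and cornification genes Lor, Krtdap, Sprr3 and Asprv1, the striated muscle genes Tnnc2, Ckm, Acta1, Atp2a1 and Tnnt3, the ribosomal protein gene Rpl4, Tpt1, Ptma, the small heat shock protein Hspb1 and the protease inhibitor Slpi. Leaving out A3 and A5 kept 24 of the 25, and dividing by exon length kept 18 of them. Past the 25, the next genes were the actin-severing protein Gsn, the noncoding RNA H19, the envelope genes Tgm3 and Cnfn and the aldehyde dehydrogenase Aldh3a1, at 21622 to 24123 normalized counts.

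Grouped into classes, the keratins of the differentiated layers (Krt4, Krt13 and Krt78) took 10.5% ± 1.73 of reads (SD, n = 5). Mitochondrially encoded genes took 9.21% ± 2.92, striated muscle genes 6.22% ± 0.976 and cornified envelope genes 4.45% ± 0.573. Detoxifying enzymes took 1.78% ± 0.236, fibroblast and matrix genes 0.943% ± 0.0957 and suprabasal secreted and membrane proteins 0.921% ± 0.131. The basal keratins Krt5, Krt14 and Krt15 took 0.441% ± 0.0410, smooth muscle genes 0.436% ± 0.118, antioxidant enzymes 0.400% ± 0.0476 and all immune cell markers 0.245% ± 0.0562. Striated muscle held more reads than the cornified envelope in A1, A2, A3 and A4 and fewer in A5 (4.74% against 5.17%). Without A3 and A5 the shares of differentiated keratins, envelope and detoxifying genes were lower, at 9.35%, 4.07% and 1.63%. Those of basal keratins, suprabasal, antioxidant, fibroblast and immune genes were lower too, at 0.425%, 0.826%, 0.367%, 0.882% and 0.225%. The shares of mitochondrial, striated muscle and smooth muscle genes were higher, at 11.1%, 6.85% and 0.514%. Counted per kilobase of exon, the envelope class took 8.85% and mitochondrially encoded genes 18.8%, so their shares depend on whether a read or a read per length is counted.

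**Figure D1:**
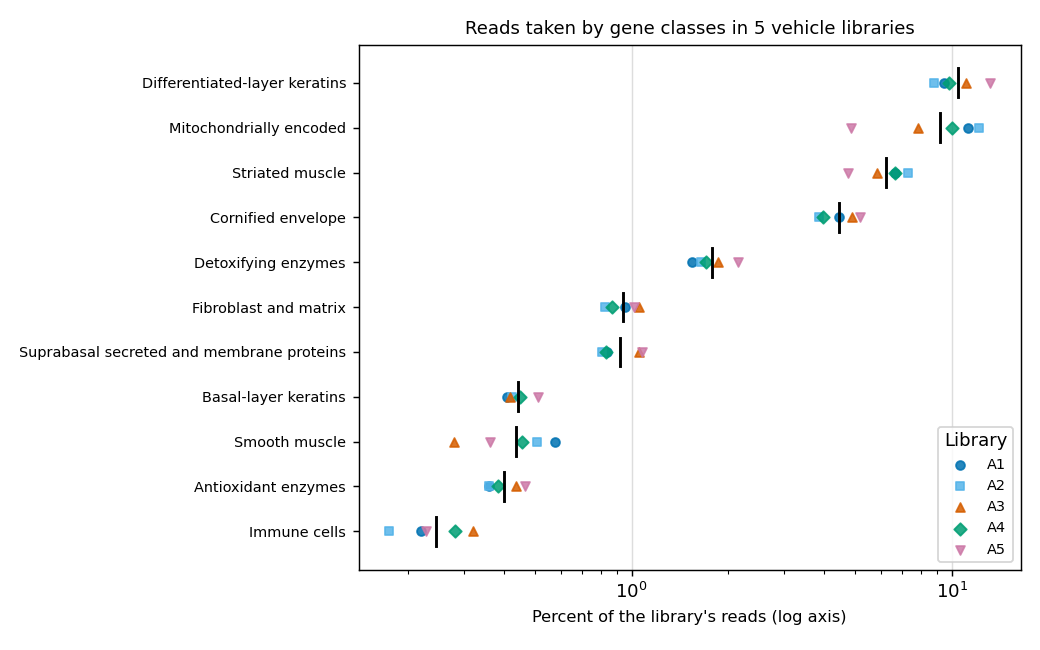
Percent of each vehicle library's reads in 11 gene classes (log axis), with 1 point per library and a black bar at the mean of 5. Differentiated-layer keratins lie between 8.79% and 13.2%, and A5 is the highest library for keratins and envelope genes and the lowest for striated muscle and mitochondrially encoded genes.

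Among the keratins, the filament proteins of epithelial cells, the pair of the differentiated esophageal layers stood far above all others. Krt4, on chromosome 15 (chr15:101918235-101924735), was at 353302, 314885, 441533, 330098 and 557888 normalized counts in A1 to A5. Krt13, its type I partner on chromosome 11 (chr11:100117027-100121566), was at 256429, 245022, 347360, 284554 and 401137. Both were highest in A5 and next highest in A3, and the other 3 libraries lay within a narrower band. Together the pair made up 95.1% ± 0.401 of all reads of the 54 keratin genes in the table, 53.7% from Krt4 and 41.5% from Krt13. The ratio of Krt4 to Krt13 was 1.30 ± 0.0934 in normalized counts and ranged from 1.16 to 1.39. Per kilobase of exon it was 1.11 and ranged from 0.990 to 1.19, so the order of the pair held in 5 of 5 libraries by counts and in 4 of 5 per kilobase.

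The basal keratins followed. Krt5, the type II keratin of basal cells, was at 14063, 13359.8, 14447, 13143 and 19058 normalized counts in A1 to A5. Krt15, a type I keratin of basal and progenitor cells, was at 10238, 11695, 13086, 12690.2 and 14983. Krt14, the other basal type I keratin, was at 2052, 1916, 2438, 2276 and 3102. All 3 were highest in A5. Krt5 was above Krt15 in 5 of 5 libraries by counts and in 2 of 5 per kilobase, so these neighbours are not ordered on the length-adjusted scale, while both were above Krt14 in every library on either scale. In this esophagus the type I basal keratin with more reads was Krt15, at 5.37 ± 0.504 times Krt14. The sum of Krt4 and Krt13 was 23.6 ± 2.43 times the sum of Krt5, Krt14 and Krt15, with a range of 20.8 to 26.3 over the libraries, and 23.3 times per kilobase.

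Below these came Krt78, a type II keratin of the upper esophageal layers, at a mean of 1921 ± 341 normalized counts, and Krt80, a keratin of differentiating stratified epithelia, at 1388 ± 273. Krt23, a type I keratin, was at 714 ± 97.4. Krt32, better known as a hair cuticle keratin and chosen after its values were seen, was at 1459 ± 417, above Krt80 by counts in 3 of 5 libraries. The epidermal differentiation keratins were low: Krt10 had a mean of 50.1 and Krt1 of 4.86 normalized counts. The simple epithelial keratins Krt8, Krt18, Krt7 and Krt19 had means of 6.99, 4.96, 4.86 and 4.09. Of the 54 keratin genes, 14 had a mean of at least 20, and 23 had no read in any vehicle library, among them the palmoplantar keratin Krt9, Krt24, Krt77 and the intestinal keratin Krt20.

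The cornified envelope genes were led by loricrin, the main structural protein of the envelope. Lor (chr3:92079971-92083142) was at 61245, 48277, 64178, 50642 and 79906 normalized counts in A1 to A5. Krtdap, a small secreted protein of differentiating keratinocytes (chr7:30787896-30791397), was at 23830.0, 23636, 35619, 25746 and 39858. Sprr3, the small proline-rich protein typical of the esophagus (chr3:92456202-92458720), was at 24513, 25819, 38008, 24390.1 and 35909. For Krtdap and Sprr3, A3 and A5 lay above the other 3 libraries without overlap, and Lor was highest in the same 2. Means of Krtdap and Sprr3 were 29738 ± 7502 and 29728 ± 6666, and neither was above the other in all 5 libraries by counts, while Krtdap was above in 5 of 5 per kilobase.

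The start sites of these 3 genes are shown because each holds the letters TATAAA, which spell the core promoter motif known as a TATA box, at about the distance from the start where such boxes lie. The windows are the 250 bases before the annotated start from RefSeq on GRCm38.p6, written 5′ to 3′ along the gene, with TATAAA in capitals. Lor is at chr3:92083143-92083392 on the minus strand, Sprr3 at chr3:92458721-92458970 on the minus strand and Krtdap at chr7:30787655-30787904 on the plus strand.
Lor: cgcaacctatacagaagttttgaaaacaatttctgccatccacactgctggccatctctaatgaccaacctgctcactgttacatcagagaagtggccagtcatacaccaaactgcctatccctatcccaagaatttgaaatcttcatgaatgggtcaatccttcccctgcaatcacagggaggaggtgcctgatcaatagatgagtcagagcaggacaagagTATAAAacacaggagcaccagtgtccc
Sprr3: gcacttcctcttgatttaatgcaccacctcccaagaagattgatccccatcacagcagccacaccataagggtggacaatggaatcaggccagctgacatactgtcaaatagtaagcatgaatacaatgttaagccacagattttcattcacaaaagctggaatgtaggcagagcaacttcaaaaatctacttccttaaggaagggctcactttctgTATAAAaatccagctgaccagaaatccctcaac
Krtdap: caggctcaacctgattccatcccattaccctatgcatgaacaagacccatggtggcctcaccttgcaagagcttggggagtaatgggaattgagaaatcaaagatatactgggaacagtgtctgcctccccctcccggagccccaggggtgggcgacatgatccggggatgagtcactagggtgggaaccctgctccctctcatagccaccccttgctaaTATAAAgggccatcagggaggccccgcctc
The first base of the match lies 27 bases before the start in Lor, 33 in Sprr3 and 30 in Krtdap. Searched on both strands of 300-base windows (250 before and 50 after the start), TATAAA was found in 25 of the 59 envelope genes with a window (65 in the list), or 42.4%. It was found in 24.4% of detoxifying enzyme genes, 22.6% of striated muscle genes and 15.7% of all 27025 genes with a window. A match is a description of the letters, not of a site in use.

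Within the loricrin and filaggrin group of the epidermal differentiation complex, levels differed widely. Crct1, a cysteine-rich protein, had a mean of 10248 ± 2360 normalized counts and Rptn, the S100-fused protein repetin, one of 6507 ± 873. Hrnr, hornerin, was at 1701, 1495, 1778, 748 and 1522 in A1 to A5, with A4 below the others. Flg, filaggrin, the major filament-bundling protein of epidermis, was at 91.4, 34.5, 27.3, 66.0 and 85.8, with A2 and A3 the lowest libraries. Ivl, involucrin, was at 0, 5.25, 9.74, 1.56 and 2.86. Flg2 and Crnn, the latter cornulin, had means of 0.416 and 0.104, and Tchhl1 and Lelp1 had no read in any of the 5 libraries.

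Small proline-rich genes were uneven. After Sprr3 came Sprr1a at 4811 ± 747 and Sprr1b at 722 ± 220 normalized counts, and the ratio of Sprr3 to Sprr1a was 6.15 ± 0.639 (4.06 per kilobase). Sprr2a3 had a mean of 191 and Sprr2h of 22.2, while Sprr2a1 and Sprr2a2 had no read. Members of the Sprr2, Lce, Krt6 and Gstm families are near-identical copies, and the sources used here do not state how reads matching several genes were counted, which leaves the split between copies uncertain.

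The late cornified envelope genes, a cluster on chromosome 3, were read in 20 of 21 members. Lce3e, Lce3c, Lce3b, Lce3a and Lce3f of the Lce3 group were highest. Lce3d of the same group was far lower, below Lce1l in 5 of 5 libraries by counts. Lce3e was at 20090, 15155, 23017, 12109 and 21310 normalized counts in A1 to A5, and Lce3c had a mean of 17248 ± 3039. A2 and A4 were the lowest libraries for both, and Lce3e was above Lce3c in 4 of 5 libraries by counts and 3 of 5 per kilobase. Lce3b, Lce3a and Lce3f had means of 11743, 7833 and 6175, Lce1a1 one of 3206, and Lce6a had no read. The cluster as a whole took 1.22% of reads, against 1.17% for the loricrin and filaggrin group, 0.528% for the small proline-rich genes and 1.53% for crosslinking and scaffold genes.

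In the crosslinking group, Tgm3, a transglutaminase that joins envelope proteins, was at 18404, 18012, 25456, 18157 and 28762 normalized counts in A1 to A5, and A3 and A5 were above the others. Its relative Tgm1, the membrane-bound transglutaminase of epidermis, had a mean of 414, and Tgm3 was 52.4 ± 2.48 times Tgm1 by counts and 40.04 times per kilobase. Cnfn, cornifelin, had a mean of 21718 ± 4823, not ordered against Tgm3 by counts (Tgm3 above in 2 of 5 libraries) but above it in every library per kilobase. Dmkn, dermokine, was at 12437, the desmosome-linked scaffold proteins Ppl and Evpl at 3899.9 and 3078, Anxa1 at 2778, the corneodesmosome protein Cdsn at 2165, Ecm1 at 1706 and the cornification protease Casp14 at 1306. Asprv1, the skin aspartic protease that processes filaggrin, was among the 25 highest genes with a mean of 26392 ± 4987.

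**Figure D2:**
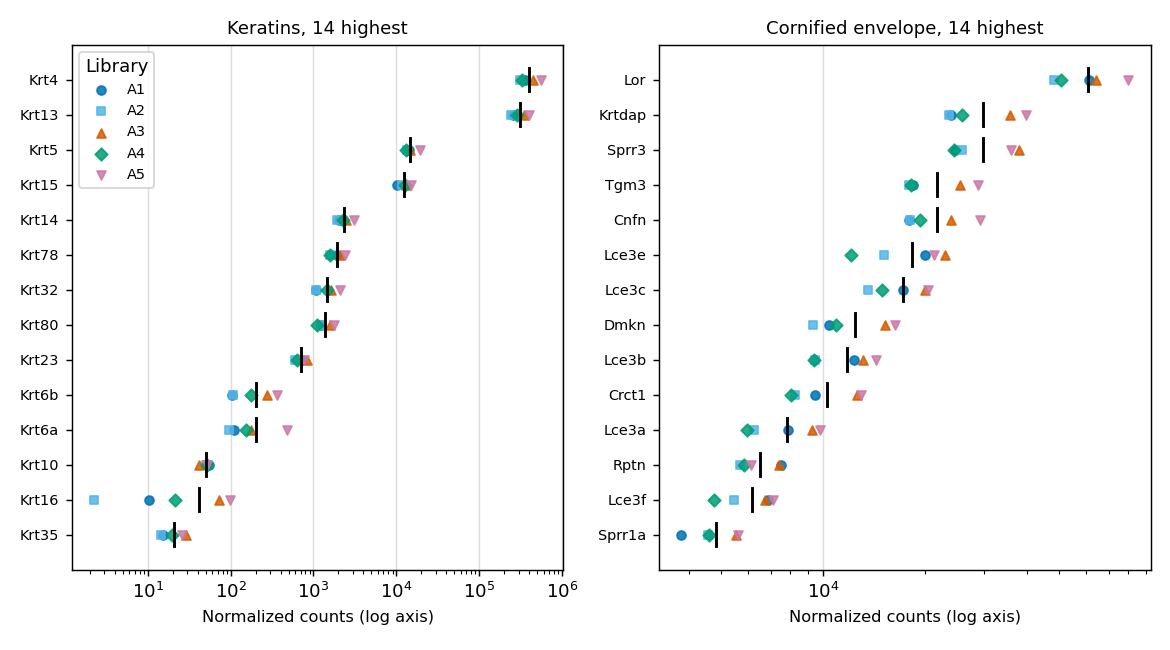
Normalized counts (log axis) of the 14 highest keratins and the 14 highest cornified envelope genes in each vehicle library, with a black bar at the mean of 5. Krt4 and Krt13 lie between 245022 and 557888, over a decade above Krt5, and A3 and A5 are at the right for most envelope genes.

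The suprabasal list of secreted and membrane proteins was led by Calml3, a calmodulin-like protein of keratinocytes, at 12366 ± 2979 normalized counts. Ly6d, a GPI-anchored surface protein of stratified epithelium, was at 11592 ± 3770, and the protease inhibitors Serpinb3a and Serpinb12 were at 8963 and 8402. Of the 27 listed genes 21 had a mean of at least 20, and Rhcg, an ammonium transporter, and Clca4b were among those with no read in any library. In the basal list of adhesion and progenitor genes, the transcription factors Pitx1 and Sox2 had means of 2232 ± 224 and 1933 ± 243, the hemidesmosome linker Dst one of 1576 and the laminin receptor Bcam one of 1385. The desmosome list was led by desmoplakin, Dsp, at 9594 ± 1678 and by Pkp1 at 6845 ± 1237, with Perp at 5597 and Dsc2 at 2352.

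The detoxifying enzymes were led by 3 genes whose products handle aldehydes, aromatic compounds and lipid peroxidation products. Aldh3a1, a cytosolic aldehyde dehydrogenase (chr11:61207537-61218721), was at 16884, 17545, 25548, 17102 and 31033 normalized counts in A1 to A5. Cyp2f2, a cytochrome P450 that oxidises small aromatic compounds (chr7:27119909-27133960), was at 13570.3, 15187, 17989, 15769 and 24860. Gsta4, the glutathione transferase for hydroxynonenal, was at 11834, 12746, 17876, 14078 and 17126. In all 3 genes A3 and A5 were the 2 highest libraries. The ratio of Aldh3a1 to Cyp2f2 was 1.23 ± 0.126 by counts and 1.28 per kilobase.

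Next were Gstm1 at 10921 ± 1359, the carbonyl reductase Cbr2 at 10010.3 ± 2140.4, Gsto1 at 7982 ± 1457, the retinol-active alcohol dehydrogenase Adh7 at 4824 ± 951 and Gstm2 at 4153 ± 766. By counts Gsta4 was above Gstm1 and Gstm1 above Gsto1 in 5 of 5 libraries, and both orders held per kilobase. Ptgr1, Aldh1a7, Aldh3b2, Adh1 and Aldh2 had means of 2584, 2275, 1497, 1371 and 1271. The P450 partners Cyb5a and Por, which pass electrons to P450 enzymes, were at 1641 and 1525. The flavin monooxygenase Fmo2 was at 930.2, the carboxylesterase Ces1d at 995 and Nqo1, a quinone reductase, at 232. Several members had next to no reads. Cyp1a1, the P450 that aryl hydrocarbons induce, had a mean of 0.658, and Cyp1a2, Cyp2a4, Cyp2b23, Cyp2w1, Ugt1a2, Ugt1a9, Ugt1a10 and Ugt2b35 had no read in any vehicle library. The aldehyde, alcohol and keto group held 0.739% of reads, the conjugation group 0.671% and the P450 group 0.369%. Among antioxidant enzymes, the peroxiredoxins Prdx1 and Prdx5 had means of 3603 and 3454, Txn1 one of 3007 and Gpx1 one of 2671.

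Striated muscle genes were led by counts by Tnnc2, Ckm and Acta1, of which only Tnnc2 is in the fast-fiber list. Tnnc2, the calcium-binding troponin of fast fibers, was at 41915, 45195, 44083, 40628 and 35254 normalized counts in A1 to A5. Ckm, muscle creatine kinase, was at 30450.3, 34551, 32252, 33163 and 29158. Acta1, skeletal alpha-actin, was at 30064, 33003, 29123, 32783 and 24544. All 3 were lowest in A5, and the highest library was 1.28 times the lowest for Tnnc2 and 1.34 times for Acta1, with Ckm more even than either. Ckm was above Acta1 in 5 of 5 libraries by counts and in 0 of 5 per kilobase, so their order depends on the scale, while Tnnc2 was above Acta1 in every library on both.

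Among the other thin filament genes, the fast troponins Tnnt3 and Tnni2 had means of 27092 ± 3166 and 14527, the tropomyosins Tpm2 and Tpm1 means of 20623 and 17754, cardiac alpha-actin Actc1 one of 12050.0 and desmin, Des, one of 9102. Atp2a1, the calcium pump of fast fibers, was at 28818 ± 6502, and 21.2 ± 3.26 times Atp2a2, the pump of slow and cardiac muscle (37.1 times per kilobase). Myoglobin, Mb, was at 18612 ± 1560, the glycogen phosphorylase Pygm at 10810.1 and sarcolipin, Sln, at 8676. The slow and cardiac troponin Tnnc1 had a mean of 3.41, and Myl2 had no read in any of the 5 libraries. The listed fast-fiber genes took 2.37% ± 0.358 of reads and the listed slow-fiber genes 0.282% ± 0.0239, of which Myl3 held 0.257%. Myl3, an essential light chain of slow fibers, was at 17704, 17743, 17783, 16191 and 16690, and all 5 libraries lay close together.

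The sarcomeric myosin heavy chains, the motors of the thick filament, lie in a cluster on chromosome 11. Myh8, the chain known as perinatal, was at 18308, 26264, 12333, 16922 and 9489.6 normalized counts in A1 to A5. It made up 65.4% ± 3.20 of the reads of Myh1, Myh2, Myh3, Myh4, Myh7 and Myh8 together, and 50.2% ± 3.65 per kilobase. Myh1, the fast IIX chain, made up 22.9% ± 3.01, Myh4, the fast IIB chain, 11.1% ± 2.75 and Myh2, the fast IIA chain, 0.577% ± 0.291. Myh7, the slow chain, had a mean of 0.298 and the extraocular chain Myh13 had no read. Myh8 was above Myh1 in 5 of 5 libraries, by 2.46 to 3.79 times in counts and 1.33 to 2.05 times per kilobase. These genes are close copies, so the limit on reads matching several genes applies to their split too. Other genes of developing or regenerating muscle were far lower, with Chrna1 at 162, the myogenic factor Myod1 at 95.9 and Ncam1 at 68.9.

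**Figure D3:**
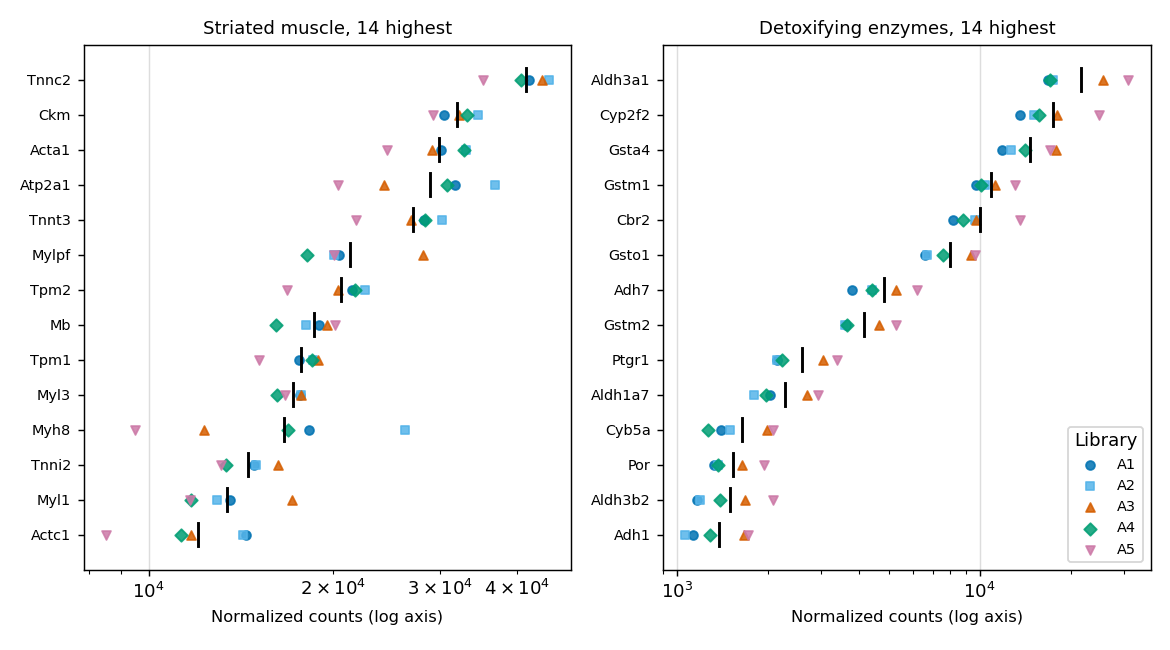
Normalized counts (log axis) of the 14 highest striated muscle genes and the 14 highest detoxifying enzyme genes in each vehicle library, with a black bar at the mean of 5. A5 is the lowest library for Tnnc2, Ckm, Acta1 and Myh8 and the highest for Aldh3a1 and Cyp2f2, and Myl3 varies between 16191 and 17783.

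The 20 listed smooth muscle genes took 0.436% of reads, against 6.22% for the 68 listed striated muscle genes. The cell source of the reads of either list was not tested. Acta2, smooth muscle actin, was at 9994, 9547, 5029, 8445 and 7936 normalized counts in A1 to A5. Myh11, smooth muscle myosin, was at 3539, 2806, 666, 2567 and 2152. A3 was the lowest library for both. The ratio of Acta1 to Acta2 was 3.85 ± 1.14 by counts and ranged from 3.01 to 5.79. Hspb6 and Tagln had means of 6445 and 3668, and Pcp4 had no read.

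Markers of other cells of the esophageal wall were also read. Fibroblast and matrix genes were led by Gsn, which other cell types also express, and by Dcn at 10380.7, Col3a1 at 7969 and Col1a2 at 5038 normalized counts. The lymphatic marker Lyve1 was at 653, the endothelial receptor Flt1 at 250.3 and the pericyte gene Rgs5 at 532. Nos1, an enzyme of inhibitory enteric neurons that striated muscle also makes, was at 725 and the myelin gene Mbp at 320. Ano1 and Kit, markers of interstitial cells of Cajal, were at 128 and 9.75. In the fat cell list Car3 was at 9068 and held 89.0% of the list's reads, and its cell source was not tested. The other listed genes were far lower. Fabp4 was at 715, 2.59 times Cfd, and Cfd was 3.25 times Adipoq. Of the 9 listed genes 4 averaged under 20, and Ucp1 had no read. Of the immune markers, the antigen-presentation genes H2-Eb1 and H2-Aa were highest, at 2855 and 2743, with H2-Ab1 at 2032 and Cd74 at 1458. The macrophage genes Retnla, C1qc and Lyz2 were at 2047, 1209 and 1039. T cell, mast cell and eosinophil markers were far lower. The T cell gene Trbc2 was at 45.8 and the mast cell gene Cpa3 at 32.0. Of the 8 eosinophil markers, Ear6, a ribonuclease gene with close copies, was highest at 37.2, followed by its relative Ear2 at 8.25, while Prg2 was at 0.208 and Epx and Ccr3 had no read in any library.

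The tissue label was checked against markers of organs that lie beside the esophagus. The parietal cell genes Atp4a and Atp4b, the parathyroid genes Pth and Gcm2 and the thymus genes Rag2 and Dntt had no read in the 5 libraries. The stomach gene Tff1 was at 145, 190, 104, 49.3 and 316, and Gkn2 had a mean of 83.3. The airway list was led by Tppp3 at 4576, which is also made in other tissues, while the club cell gene Scgb1a1 had a mean of 41.8. The thyroid list summed to 173 normalized counts on average, and Foxe1 held 97.2% of its reads. The salivary and submucosal gland list summed to 71.4, and Amy1 held 96.1% of its reads. Thyroglobulin, Tg, was at 1.16, albumin, Alb, at 1.05 and the cartilage collagen Col2a1 at 0.206.

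The spread between the 5 libraries was then compared over genes. Each gene's SD of log2(normalized count + 1) was divided by the running median SD of the 200 genes nearest to it in mean, and genes with a ratio of at least 3 are called variable. The median SD over the 11563 genes was 0.25. Variable genes numbered 196, or 1.7% of those tested. Just inside the threshold was Efcab1 at 3.004, and just outside it Pnn at 2.998. A5 was the lowest library for 126 of the 196 genes and the highest for 7. Over all 11563 tested genes it was the lowest for 2810 and the highest for 3776. Of 11159 protein-coding genes 149 were variable (1.34%), against 25 of 98 transcripts that the annotation marks as TEC (25.5%) and 9 of 100 lincRNAs. Without A3 and A5 there were 277 variable genes, and 82 of the 193 that could still be tested were among them, so which genes are called variable depends on the libraries used.

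None of the 48 envelope genes, 73 detoxifying enzymes, 21 suprabasal genes, 15 basal adhesion and progenitor genes and 11 desmosome genes that passed the filter was variable, and at the share of 1.7% over all genes lists of this size would hold few or none. Their median highest-to-lowest ratio was 1.67 for envelope genes and 1.65 for detoxifying enzymes, against 1.54 over all 11563 genes. In direction, A3 and A5 were both above the other 3 libraries in 29 of 48 envelope genes, 40 of 73 detoxifying enzymes and all 6 basal and differentiated keratins, against 28.5% of all genes. Striated muscle genes went the other way, with A3 and A5 both below in 29 of 63, against 17.9% of all genes.

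**Figure D4:**
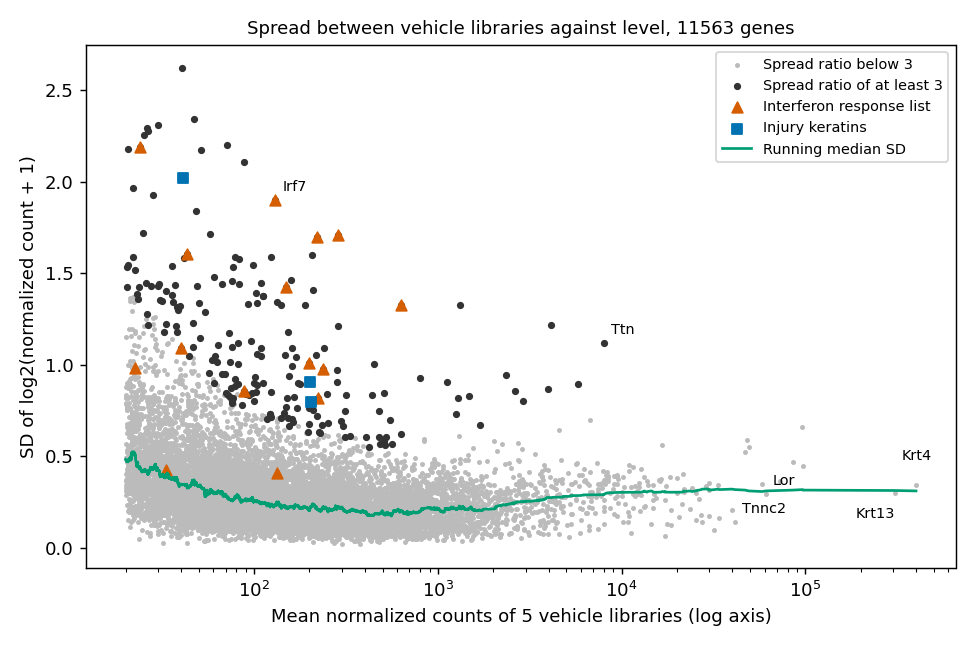
SD of log2(normalized count + 1) over the 5 vehicle libraries against the mean normalized count (log axis) for 11563 genes, with the running median as a line. The 196 genes with a ratio of at least 3 are dark, and 12 of the 15 interferon response genes and all 3 injury keratins lie among them.

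The group with the most variable members was the interferon response, in which 12 of 15 tested genes were variable, against 1.7% of all genes. These genes encode antiviral effectors and their regulators and rise when interferons signal. Irf7, the master regulator of type I interferon genes, was at 29.8, 26.2, 125, 450 and 18.6 normalized counts in A1 to A5, with a spread ratio of 8.21. Isg15, a ubiquitin-like effector, was at 118, 48.8, 440.4, 749 and 65.8. Ifit1, which binds viral RNA, was at 84.2, 57.8, 206, 369 and 30.1. In each of these genes A4 was highest and A3 next, both above the other 3 libraries without overlap.

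Oasl2, a relative of the oligoadenylate synthetases, was at 106, 68.2, 297, 602 and 30.1. Ifi27l2a was at 311, 175, 811, 1598 and 236. The list's mean deviation from the 5-library mean was 1.42 in A4 and 0.97 in A3 on the log2 scale, against -0.36 in A1, -0.82 in A2 and -1.21 in A5. A4 was the highest library for 12 of the 15 genes and A3 for the other 3. Among all 196 variable genes A4 was the highest for 65 and A3 for 16. Of the 3 listed interferon genes that were not variable, Ifit3 ran from 85.8 in A5 to 192 in A4. Without A3 and A5, 11 of the 15 were variable, and over all settings tried the number lay between 8 and 13. Outside the list, the oligoadenylate synthetase Oas2 ran from 5.72 in A5 to 244 in A4. The genes Apol9a, Apol9b, H2-Q7, Igtp and Iigp1, which interferons also induce and which are outside the list too, were among the 20 with the highest spread ratios. Among the 5 OXA libraries, 1 of the 15 was variable, and the spread ratio of Irf7 was 2.72 there.

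The starts of Isg15 and Ifit1 are shown because both hold the core of the interferon-stimulated response element, searched as GAAA, any 2 bases, then GAAA. The windows are the 250 bases before the start from RefSeq on GRCm38.p6, with matches in capitals. Isg15 is at chr4:156200819-156201068 on the minus strand and Ifit1 at chr19:34640639-34640888 on the plus strand.
Isg15: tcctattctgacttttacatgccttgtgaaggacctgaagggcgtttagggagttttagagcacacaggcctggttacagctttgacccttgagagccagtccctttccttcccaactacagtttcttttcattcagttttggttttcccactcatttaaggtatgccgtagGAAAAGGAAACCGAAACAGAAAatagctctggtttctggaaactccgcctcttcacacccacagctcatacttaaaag
Ifit1: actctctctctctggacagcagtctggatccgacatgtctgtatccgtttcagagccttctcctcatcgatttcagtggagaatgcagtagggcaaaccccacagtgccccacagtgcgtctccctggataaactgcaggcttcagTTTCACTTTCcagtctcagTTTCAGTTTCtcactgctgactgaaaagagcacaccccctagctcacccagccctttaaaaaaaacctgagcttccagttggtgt
In Isg15, 3 overlapping matches begin 78, 72 and 66 bases before the start. In Ifit1, 2 matches begin 104 and 85 bases before the start and lie on the opposite strand, so they read TTTC, 2 bases, then TTTC here. Searched on both strands of the 300-base windows, the letters were found in 8 of the 13 interferon genes with a window (61.5%), namely Bst2, Cxcl10, Gbp2, Ifit1, Ifit3, Isg15, Oas1a and Rsad2, and in 3.99% of all 27025 genes. They were found in 1 of 59 envelope genes and 2 of 82 detoxifying enzyme genes.

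The injury keratins, which stratified epithelia switch on when they are wounded or grow fast, were all variable (3 of 3 with a mean of at least 20). Krt6a was at 109.9, 94.5, 178, 152 and 474 normalized counts in A1 to A5. Krt6b was at 104, 107, 272, 178 and 363. Krt16, their type I partner, was at 10.3, 2.25, 72.1, 21.3 and 98.7. All were highest in A5 and next in A3, and 0 of 3 were variable without those 2 libraries. In every library each of the 3 had fewer reads than Krt14. The fourth member, Krt17, had a mean of 18.3 and was not tested.

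Schwann cell and glial genes varied in another order. Sox10, the glial transcription factor, was at 194, 164, 18.5, 93.0 and 41.5 normalized counts in A1 to A5, with a spread ratio of 5.47. Cdh19, a cadherin of Schwann cells that is outside the nerve and glia list, was at 121, 74.2, 6.82, 32.2 and 1.43, with a ratio of 6.53. A1 was highest and A2 next for both, and A3 and A5 were the 2 lowest. Of the 10 tested nerve and glia genes 3 were variable, Sox10 among them. Of these 10 genes 7 were highest in A1 and 2 in A2. Among all 196 variable genes 53 were highest in A1 and 55 in A2, and the same count over all tested genes was not made. The list's mean log2 deviations were 0.80, 0.51, -0.60, 0.03 and -0.74 in A1 to A5. Mbp and S100b had low ratios, 1.52 and 1.31, beside a list median of 2.45.

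Some muscle genes with very long transcripts were variable. Ttn, titin, the giant spring of the sarcomere, was at 10379.9, 12834, 3821, 10649.7 and 2182 normalized counts in A1 to A5. Trdn, triadin of the calcium release complex, was at 1607, 2072, 653, 2045 and 249. Neb, nebulin, was at 3509, 4282, 1808, 3743 and 1170.5. A3 and A5 were the 2 lowest libraries for each, the libraries whose deviations fell with exon length, and the part of that pattern in these values was not tested. Of 13 tested thick filament genes 2 were variable, Ttn and Myh2, of 25 thin filament genes 2, Neb and Xirp2 (the last chosen after its values were seen), and of 16 smooth muscle genes 3, Myh11, Cnn1 and Synm (the last 2 likewise). Of 25 tested calcium and energy genes, a list without Trdn, 0 were variable, and at 1.7% over all genes it would hold few or none. Variable genes as a whole were not longer, with a median exon length of 4340 bases against 4468 over tested genes. In the OXA libraries, which the choice did not use, 10 of 13 thick filament and 10 of 25 thin filament genes were variable. So were 8 of 25 calcium and energy genes, against 2.22% of the 11067 genes tested in both groups.

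Several of the most variable genes belong to blood and immune cells. Igkc, the kappa light chain of antibodies, was at 127, 574, 194, 25.4 and 113 normalized counts in A1 to A5. Ighm and Jchain, also antibody genes, had the same highest library, A2 (267 and 82.5), and the same lowest, A4 (40.5 and 4.15). Without A2, 1 of these 3 genes was variable. Ppbp, a platelet chemokine, was at 226, 274, 35.1, 22.3 and 57.2, and Nrgn, a calmodulin-binding protein of neurons and platelets, was at 160.2, 145, 19.5, 13.5 and 55.8. A1 and A2 were the high libraries for both, without overlap with the others. Chil4, a chitinase-like protein that type 2 cytokines induce, is in the type 2 and epithelial alarm list and in no immune cell list. It was at 36.0, 46.5, 370.3, 131 and 119, highest in A3.

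**Figure D5:**
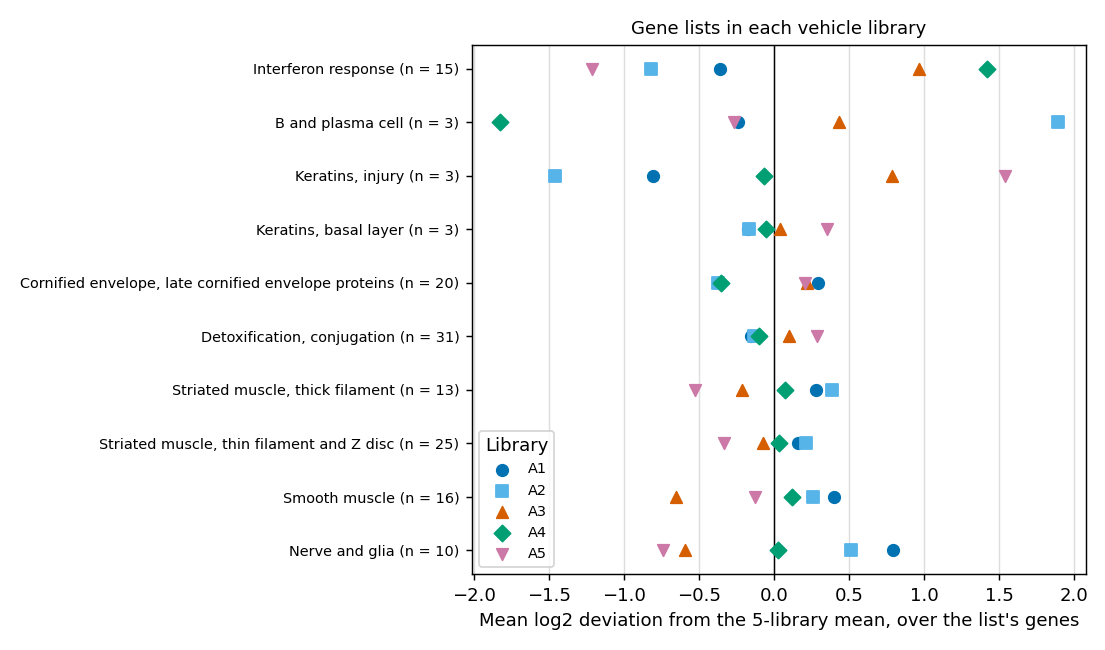
Mean log2 deviation of 10 gene lists from their 5-library mean in each vehicle library, with the number of genes per list in brackets. The interferon list is high in A4 (1.42) and A3 (0.97), the injury keratins in A5 (1.54), the nerve and glia list in A1 (0.80), and the basal keratin, late cornified envelope and conjugation lists stay within 0.4 of 0.

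Of the 189 variable genes that also passed the filter in OXA, 38 were variable among the 5 OXA libraries (20.1%), against 2.22% of all genes tested in both groups. Spearman's rho between the spread ratios of the groups was 0.22 across these genes, whose points share a gene's length and level. Ppbp, Sox10, Nrgn, Trdn and Cdh19 had ratios of 11.6, 6.35, 6.06, 4.75 and 3.05 in OXA, and Oas2, Ifit1 and Krt16 had 2.42, 1.67 and 1.35.

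The classes that ranked highest here were then set beside the OXA libraries, with limma over 14712 genes and Benjamini-Hochberg adjustment. All vehicle libraries carry the letter A and all OXA libraries the letter C or D, and the meaning of the letters is not given. A difference that goes with the letters cannot be told apart from one of treatment. Over all genes 15.7% were higher and 14.2% lower in OXA, or 52.5% of called genes higher, and 65.4% higher when libraries were scaled to their totals. Of the 3 keratins of the differentiated layers, Krt4 and Krt78 were lower in OXA (-1.53 and -2.38, adjusted p = 0.0344 and 0.000156 by limma), without overlap between the groups, and Krt13 was not called (-0.83, adjusted p = 0.215 by limma). The call of Krt4 was lost without any one library other than A2 and D2, and its adjusted p ran from 6.01e-07 to 0.346 over all settings tried. Of 15 mitochondrially encoded genes 1 was higher, the ribosomal RNA mt-Rnr1 (1.39, adjusted p = 0.00207 by limma), and 14 were not called, with a median of -0.42. Of 82 tested detoxifying enzymes, 46 were lower in OXA and 6 higher, with a median log2 difference of -0.86 against -0.01 over all genes. Of 55 tested envelope genes, 35 were lower and 11 higher, the 11 all small proline-rich genes, with a median of -1.52. Of 65 striated muscle genes, 7 were lower and 4 higher, with a median of -0.44, and the number lower was 27 without D1, 11 without D3, 3 or 4 without any one of A1 to A5, C1 or D4, and 2 without A3 and A5 together. The leading enzyme Aldh3a1 was lower by limma (log2 difference -7.60, SE 0.36, adjusted p = 2.06e-08), with a highest OXA library at 241 normalized counts against a lowest vehicle library at 16884. Cyp2f2 was lower too (-5.58, adjusted p = 1.4e-07 by limma), with no overlap between the groups. Lor fell by 2.44 on the log2 scale, Krtdap fell by 1.66 and Sprr1a rose by 1.31, all called by limma and without overlap between the groups. Sprr3 was not called (-0.74, adjusted p = 0.0791 by limma), and was called only without D2 (-0.98, adjusted p = 0.0107 by limma), where the range over all settings tried was from 0.0107 to 0.302. Tnnc2 and Acta1 were not called (-0.26 and -0.17).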

How the data were processed

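The authors deposited 1 normalized signal for each gene in each library, written to 2 decimals. The values are those of read counts scaled by 1 factor per library. Per the submitters' processing notes, which state no roles, the tools were DESeq2 1.18.1 and HTSeq 0.11.2, the aligners TopHat2 2.1.0 and Bowtie2 2.2.6, FastQC 0.11.5, and Trim Galore with cutadapt 1.10, on the build GRCm38. The sources used here do not state the annotation release, the strand setting, the treatment of multiply matching reads or any use of molecular identifiers. Without such identifiers reads need not be separate molecules, and the floors cover counting error only.

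Each library's values were whole multiples of a single step, and 100% of them came out as whole reads (tolerance 0.006) when divided by it. Shares are percentages of a library's reads. Levels are deposited normalized counts, as mean ± SD with n = 5 unless stated. Because reads come from 3′ ends, the main levels are not divided by gene length. As an alternative, levels were also divided by the summed exon length of the gene in GENCODE M21. For this 54409 of 54446 identifiers matched without their version. Neighbouring genes in a ranking were compared by the number of libraries in which 1 was above the other, with no test, since an exact sign-flip test on 5 pairs cannot reach a p of 0.05. The spread ratio used genes with a vehicle mean of at least 20, a pseudocount of 1 and the 100 genes on each side in mean.

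OXA was compared with vehicle by limma with a trend on log2(value + 1). The test was two-sided and covered the 14712 genes that averaged 5 or more across all 10 libraries, at a Benjamini-Hochberg adjusted p under 0.05. On this scale the change of low genes is understated. Count tests on the recovered reads (edgeR quasi-likelihood and DESeq2) were alternatives. The limma test and the spread ratio were tested on simulated data, and the count tests were not. Versions were R 4.3.3, limma 3.58.1, edgeR 4.0.16, DESeq2 1.42.0, Python 3.11.15, numpy 2.4.6, pandas 2.3.3 and scipy 1.17.1.

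Genes were named by a rule: the 25 highest vehicle means, the 20 highest spread ratios (predicted genes and antigen receptor segments left out), up to 12 members by mean of each keratin, envelope, muscle and detoxification list with members at the floor, and 4 members by mean of other lists with defining markers at 0. A few items that the rule names are not reported here. Members and lists were chosen with earlier results of these data known.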

Additional observations from a re-analysis of the deposited data

Results flagged for a closer look

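In each of 216 values that differed between the vehicle libraries (genes of the naming rule and gene classes), the highest or lowest of the 5 libraries was compared with the rest by Dixon's criterion, a gap to the nearest library of more than 0.71 of the whole range. It was passed by 14 values, all of genes. For normally distributed values chance alone passes about 1 in 20 such groups. That rate need not hold for counts, and a gene read in 1 library alone passes whatever its level. In A5 the basal keratin Krt5 stood at 19058 normalized counts against 13143 to 14447 in the others, and the injury keratin Krt6a at 474 against 94.5 to 178. The carboxylesterase Ces1d stood at 1381 in A5 against 807 to 969.5 in the others. In A4 the interferon regulator Irf7 stood at 450 against 18.6 to 125 and the envelope protein Hrnr at 748 against 1495 to 1778. In A3 the matrix proteoglycan Dcn stood at 13749 against 9276 to 10033 and Chil4 at 370.3 against 36.0 to 131, and in A2 the laminin receptor Bcam stood at 1633 against 1267 to 1368. The other 6 genes rested on few reads: Flg2 (2.08), Crnn (0.52) and Prg2 (1.04) were read in A4 alone and Col2a1 (1.03) in A1 alone, Tg was at 4.29 in A5 and Tnnc1 at 9 in A2.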

How the results depend on the processing

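The vehicle values were recomputed with each library left out, scaled to library totals, with other pseudocounts and filters, without mitochondrially encoded genes in the total, and per kilobase of exon; leaving out A3 and A5 together, and the rankings with 1 library left out, were chosen after seeing the data. Of the recomputed shares and counts 141 kept within the spread between libraries or 1.5 times the value, and 12 did not. Per kilobase of exon the shares were 8.85% for the envelope, 1.21% for suprabasal proteins, 0.348% for antioxidant enzymes, 0.444% for fibroblast and matrix genes, 0.331% for immune markers and 18.8% for mitochondrially encoded genes, and 52 genes held 50% of the total; this alternative weights short transcripts more by construction. Without mitochondrially encoded genes in the total, basal keratins took 0.485%. Variable genes numbered 315 when scaled to library totals (188 of the 195 testable ones kept), 101 at a mean of at least 100, 366 with the median absolute deviation (107 of 196 kept), and 194 to 272 with 1 library left out (117 of 195 kept without A5, 145 of 191 without A4). Without A3 and A5, 1249 genes were lower in OXA in place of 2085, and 1769 higher in place of 2309; this fit has fewer samples. The cause of the other shifts was not tested. The digits in the library names recur in both groups (A1, C1 and D1, for example), but nothing ties them to an animal, litter or batch. The deviations of same-digit libraries correlated at -0.23 to 0.19 across genes, and those of different-digit libraries at -0.23 to 0.25. These correlations cannot decide whether the digits pair the libraries, since the 2 ranges are alike. With the digit as a replicate block, an alternative also chosen after seeing the data, 1853 genes were higher and 1490 lower in OXA. A5, the shallowest library, has the highest floor, 4.29 normalized counts for 3 reads, so genes with means under 20 were left out of the spread ratio, and those that pass Dixon's criterion rest on few reads.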

Other observations

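Gene lists outside the epithelial, muscle and detoxification classes gave further values of the vehicle esophagus. Lipid handling was led by Fabp5, a fatty acid carrier of keratinocytes, at a mean of 13252 ± 3680.1 normalized counts. It was followed by Alox12b, a lipoxygenase of the epidermal barrier, at 4292 and Elovl4, which elongates very long fatty acids, at 2914. The heat shock list was led by Hspb1 and then by Hspa1b at 4371. Among clock genes, Tef, Nr1d1, Nr1d2 and Dbp had means of 1408, 1340.1, 1266 and 651.5, with Arntl from 5.72 in A5 to 32.9 in A1 (a gene chosen after its values were seen).

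The proliferation list was low, with Pcna at 171.0 and Top2a at 169 normalized counts. None of the 21 tested lipid, 10 heat shock, 15 clock and 13 proliferation genes was variable, beside 1.7% of all genes, a share at which lists of this size would hold few or none. Of the immediate early genes, Jund, Klf4 and Jun had means of 2191, 2084 and 1785. Fos and Atf3, both chosen after their values were seen, were the 2 variable members of 16. Fos was at 236, 101, 288, 72.7 and 73.0 in A1 to A5, high in A1 and A3. The alarm cytokines Il33 and Il18 had means of 556 and 487 and the eosinophil chemokine Ccl11 one of 282. The mesothelial gene Upk3b was at 44.2, 31.5, 3.90, 1.04 and 28.6 in A1 to A5, under the floor of 3 reads in A4.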
